A study of Homo sapiens with 9 samples.

Results

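A set of 41 genes of the hypoxia response and of glycolysis, chosen by symbol, was followed in 22Rv1, a cell line from a human prostate carcinoma. They comprise the hypoxia-inducible factor (HIF) subunits, the hydroxylases that sense oxygen, other genes induced by low oxygen, transporters of glucose and lactate, regulators of glycolytic flux and the glycolytic enzymes. All 41 were found once among the 60623 genes of the count table, and 39 passed the filter on low counts. The other 2 were CA9, a carbonic anhydrase at the cell surface, with 0 to 2 counts in a library, and HIF3A, with 0 to 12 counts. The study concerned phosphorylation of the translation inhibitor PDCD4 by the kinase PLK1 and resistance to the antiandrogen enzalutamide. In all 9 libraries PDCD4 had been depleted with a short hairpin RNA and a rescue form put back. The rescue was wild-type PDCD4 (WT), the S239A form, in which the serine is alanine and cannot be phosphorylated, or the S239D form, in which it is aspartate, a mimic of phosphoserine. Each form had 3 libraries, and the labels do not say whether a rescue line was 1 clone or a pool. All cells were grown in the same serum-containing medium, no low-oxygen treatment and no drug is named in the labels, and depletion without rescue was not analysed here. Nothing in the labels ties the 3 libraries of a form to separate cultures. The p-values therefore cover only the spread among them, which may be technical.

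HIF is a pair of proteins, an oxygen-regulated alpha subunit and the constant partner ARNT. With oxygen present, EGLN prolyl hydroxylases mark the alpha subunit for capture by VHL and degradation, so HIF is controlled mainly at the protein level. When oxygen is low, HIF binds hypoxia response elements and raises transcription of glucose transporters, glycolytic enzymes, lactate export and its own hydroxylases, which close a feedback loop. Most glycolytic genes are also driven by other factors, among them MYC, and prostate tumour cells use glycolysis at normal oxygen too.

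Libraries held 5696841 to 9688554 counts, so the floor of 3 counts was 0.307 to 0.527 CPM (counts scaled to the TMM-adjusted library size), which covers counting error only. The targeted gene, PDCD4, was at 24.1, 24.9 and 20.4 CPM (WT), 19.0, 23.1 and 25.0 CPM (S239A) and 16.8, 17.1 and 17.0 CPM (S239D), a sum of endogenous and rescue transcripts that cannot be told apart in these counts. All 3 S239D libraries were below every WT and S239A library, and the part of this lower PDCD4 RNA in the results below was not tested. All 10 luminal prostate epithelium markers were detected, and their summed TPM (abundance scaled by gene length within a library) was 3563 to 3642 in WT, 3693 to 4172 in S239A and 2554 to 2630 in S239D. In S239D, 7 of those 10 fell and 1 rose against WT, where 21.7% of all genes tested were called lower and 19.7% higher. Of 12 markers of stroma, endothelium and leukocytes, 5 passed the filter, the 12 summed to 42.7 to 73.8 TPM in a library, and CD3E and CDH5 were at 0 in all 9. The mitochondrial share of counts was 2.83% to 3.04% in WT, 2.99% to 5.38% in S239A and 4.72% to 6.01% in S239D, and library 2 was the highest in both S239A and S239D. The part of the mitochondrial share and of the marker changes in the results below was not tested, except where a value without those libraries or transcripts is given. Overlap between libraries for a single gene refers to CPM unless TPM is named.

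Promoters of 4 genes are shown, chosen among windows that hold a match to a hypoxia motif: PGK1, LDHA and ENO2, enzymes that fell in S239D, and EGLN1, the hydroxylase that rose. Each is the 250 bases before a RefSeq transcript start on GRCh38.p14, written 5′ to 3′ on the gene's strand. Capitals mark ACGTG, the core of the hypoxia response element, or GCGTG, its other common form, on either strand (CACGT and CACGC read on the opposite strand). ACGTG is also part of CACGTG, the E-box of MYC and related factors.
PGK1, chrX:78103998-78104247, plus strand: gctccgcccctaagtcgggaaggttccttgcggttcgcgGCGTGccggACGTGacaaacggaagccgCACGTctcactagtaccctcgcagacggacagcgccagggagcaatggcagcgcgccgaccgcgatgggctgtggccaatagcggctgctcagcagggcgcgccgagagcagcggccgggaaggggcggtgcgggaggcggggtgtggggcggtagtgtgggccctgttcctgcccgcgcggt
LDHA, chr11:18394313-18394562, plus strand: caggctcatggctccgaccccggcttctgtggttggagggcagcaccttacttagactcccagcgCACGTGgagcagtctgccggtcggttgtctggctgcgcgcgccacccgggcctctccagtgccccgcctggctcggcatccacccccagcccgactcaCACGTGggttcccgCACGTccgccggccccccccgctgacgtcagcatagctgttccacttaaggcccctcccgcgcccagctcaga
ENO2, chr12:6914330-6914579, plus strand: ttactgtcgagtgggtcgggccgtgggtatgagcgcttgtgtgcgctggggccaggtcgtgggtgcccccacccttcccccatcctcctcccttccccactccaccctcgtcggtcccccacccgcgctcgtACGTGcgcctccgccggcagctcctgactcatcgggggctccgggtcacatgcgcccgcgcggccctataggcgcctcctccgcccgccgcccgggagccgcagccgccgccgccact
EGLN1, chr1:231422288-231422537, minus strand: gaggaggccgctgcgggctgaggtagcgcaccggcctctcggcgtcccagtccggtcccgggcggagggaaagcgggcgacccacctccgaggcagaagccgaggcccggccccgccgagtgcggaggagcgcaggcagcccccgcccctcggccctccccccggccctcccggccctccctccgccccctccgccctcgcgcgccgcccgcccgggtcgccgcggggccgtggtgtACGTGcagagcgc
PGK1 held 3 matches, beginning 211, 202 and 183 bases before the start. LDHA held 5, of which those at 185 and 184 and at 87 and 86 bases are the 2 strands of 2 CACGTG palindromes, with 1 more at 73. ENO2 held 1 match at 118 bases and EGLN1 held 1 at 13 bases.

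A RefSeq window of 300 bases (250 before and 50 after a start) was listed for 37 of the 41 genes, in 63 windows, since several genes have more than 1 start. ACGTG lay in 26 of the 63 windows, or 41.3%, against 25.1% of the 16528 windows of all genes tested and 21.4% of all 35116 windows. GCGTG lay in 46.0% of the members' windows, against 48.0% and 36.5%. Of the members' windows, 45 held at least 1 of the motifs and 18 held neither. Among the 45 windows of members that fell in S239D the shares were 44.4% for ACGTG and 44.4% for GCGTG. Those windows make up most of the 63, so their shares cannot be set against the whole list as a separate group. A match is a description of these letters only, and windows of 1 gene overlap.

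Comparing S239D with WT asked how PDCD4 that mimics phosphorylation differs from wild type. RNA for all 3 transporters, 14 of 15 enzymes and 2 of 3 flux regulators fell in S239D. None of the 3 HIF subunits tested was called by edgeR or by DESeq2 (which called 32.2% of all genes), or passed at unadjusted p below 0.05 (49.4% of all genes). Of the 39 genes tested, 26 fell, 1 rose (EGLN1) and 12 were not called (edgeR quasi-likelihood test, Benjamini-Hochberg adjusted p below 0.05, which is what called means unless another tool is named). The share that fell was 66.7%, where 41.4% of all 16213 genes tested were called, 21.7% lower and 19.7% higher. The median log2 fold change was -0.48 for the 39 and 0.00075 for all genes, and 4 members fell by at least 2-fold: EGLN3, LOX, SLC2A3 and SLC16A3. Of these, SLC2A3 passed the filter on low counts only through WT and S239A libraries, and its call held with no filter. Of the 27 calls, 21 held in all 17 alternative analyses and 6 (BNIP3, ENO1, HK2, PDK1, SLC2A3 and TPI1) were lost with limma on log2(TPM + 1). SLC2A3 was also not tested with the filter of 1 CPM in 6 libraries, and apart from these settings all 6 calls held. In bulk RNA, fewer cells that express a gene and less RNA per cell cannot be told apart. The 15 enzymes together took 12036 ± 306 TPM with WT, 10878 ± 844 TPM with S239A and 8981 ± 81.4 TPM with S239D (SD, n = 3), a ratio of 0.746 for S239D over WT. With mitochondrial transcripts taken out of the total, the ratio was 0.803, and in both cases the S239D libraries lay below all WT libraries (exact two-sided permutation p = 0.1, the smallest that 3 against 3 allows).

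**Figure D1:**
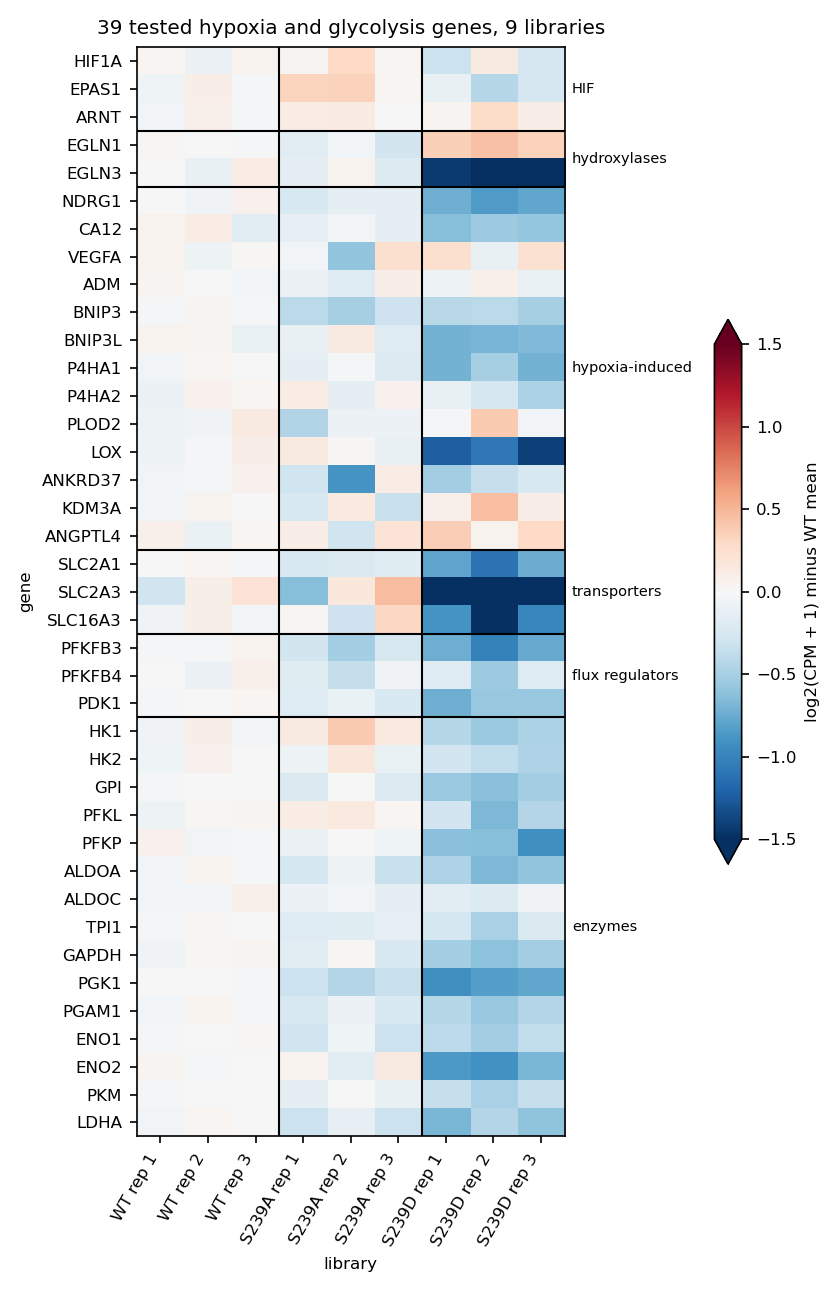
Level of the 39 tested genes in each of the 9 libraries, as log2(CPM + 1) minus the WT mean (colour, limited to 1.5 in either direction), genes ordered by role. The S239D columns are blue for most transporters and enzymes and red for EGLN1.

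Among the HIF subunits, HIF1A (chr14:61695513-61748259, plus strand, a position of the deposited table on GRCh38, as are those below) encodes the alpha subunit found in most cells, and EPAS1 encodes the related HIF-2 alpha. HIF1A was at 188, 174 and 191 CPM (WT), 189, 228 and 188 CPM (S239A) and 148, 202 and 155 CPM (S239D) (log2 fold change -0.14, SE 0.12, edgeR adjusted p = 0.370 for S239D against WT). The groups overlapped, and S239D library 2 was above every WT library. Without that library the log2 fold change was -0.29 and HIF1A passed the edgeR test (adjusted p = 0.0250). EPAS1 was at 8.99, 10.2 and 9.29 CPM (WT), 12.2, 12.3 and 9.73 CPM (S239A) and 8.70, 6.78 and 7.77 CPM (S239D), with all S239D libraries below all WT libraries in CPM, and was not called (log2 fold change -0.28, SE 0.17, edgeR adjusted p = 0.198). In TPM, EPAS1 in S239D library 3 (7.2) lay above every WT library (4.18 to 4.62). ARNT, the shared partner, was at 97.0 ± 4.23 CPM in WT and 107 ± 9.31 in S239D (SD, n = 3), with overlapping libraries and edgeR adjusted p = 0.223.

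Oxygen-sensing hydroxylases moved in opposite directions. EGLN3, a HIF hydroxylase that HIF itself induces, was at 18.0, 16.5 and 19.4 CPM (WT), 16.3, 18.6 and 15.5 CPM (S239A) and 6.0, 4.56 and 5.25 CPM (S239D). S239D stood far below the other 2 forms, which overlapped (log2 fold change -1.77, SE 0.16, edgeR adjusted p = 1.55e-06 against WT). EGLN1 (chr1:231363751-231422287, minus strand), the main HIF hydroxylase in most cells, was at 110.4, 110.1 and 108 CPM (WT), 97.4, 106 and 90.0 CPM (S239A) and 140.0, 149 and 139 CPM (S239D). All 3 S239D libraries were above every other library (log2 fold change 0.38, SE 0.083, edgeR adjusted p = 0.00226). Taking TPM, EGLN3 made up 16.3, 12.2 and 16.8 percent of EGLN1 to EGLN3 in WT and 3.59, 4.13 and 2.98 percent in S239D, with no overlap. EGLN3 (chr14:33924227-34462774, minus strand) overlaps SPTSSA on the same strand, which holds 321% of its counts and itself fell by 0.32 on the log2 scale (edgeR adjusted p = 0.0245), so how reads of the shared span were divided is uncertain.

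Of the 13 other hypoxia-induced genes tested, 6 fell (46.2%) and none rose, where 21.7% of all genes were called lower and 19.7% higher. NDRG1, a differentiation gene strongly induced by low oxygen, was at 204, 198 and 214 CPM (WT), 174, 185 and 186 CPM (S239A) and 123, 113 and 119 CPM (S239D). S239D lay below every other library, and S239A below WT in CPM (log2 fold change -0.80, SE 0.077, edgeR adjusted p = 3.09e-06 for S239D against WT). In TPM, NDRG1 in S239A (101.92 to 115.69) overlapped WT (103.01 to 124). LOX (chr5:122063195-122078360, minus strand), lysyl oxidase, which crosslinks collagen, was at 8.13, 8.43 and 9.29 CPM (WT), 9.51, 8.73 and 7.89 CPM (S239A) and 3.06, 3.58 and 2.62 CPM (S239D), and S239D was below all others (log2 fold change -1.48, SE 0.20, edgeR adjusted p = 4.98e-05). LOX overlaps SRFBP1 on the opposite strand, which holds 140% of its counts and was not called (log2 fold change 0.18). P4HA1, which hydroxylates collagen prolines, had 123, 129 and 127 CPM (WT), 114, 124 and 109 CPM (S239A) and 77.0, 89.2 and 76.5 CPM (S239D). CA12, a surface carbonic anhydrase that buffers acid, had 55.8, 58.3 and 47.7 CPM (WT), 49.3, 52.1 and 48.4 CPM (S239A) and 34.3, 36.4 and 35.6 CPM (S239D). In both genes S239D lay below every other library, by 0.64 and 0.60 on the log2 scale against WT (edgeR adjusted p = 7.00e-05 and 0.000348). BNIP3 and BNIP3L promote mitophagy. BNIP3 was at 88.9, 92.4 and 89.1 CPM (WT), 67.8, 63.3 and 72.2 CPM (S239A) and 67.4, 67.7 and 63.5 CPM (S239D), so that S239A and S239D lay alike below WT (log2 fold change -0.44, SE 0.086, edgeR adjusted p = 0.000958 for S239D against WT). BNIP3L had 134, 132 and 120.1 CPM (WT), 119, 141 and 112 CPM (S239A) and 78.1, 78.7 and 80.8 CPM (S239D), with WT and S239A overlapping and S239D below both (log2 fold change -0.70, SE 0.096, edgeR adjusted p = 6.12e-05). BNIP3L overlaps PNMA2 on the opposite strand, which holds 18.4% of its counts and fell by 1.19.

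The other 7 hypoxia-induced genes were not called in S239D against WT. VEGFA, the angiogenic growth factor and a classical HIF target, was at 228, 209 and 223 CPM (WT), 213, 145 and 260.1 CPM (S239A) and 260.2, 204 and 258 CPM (S239D), with overlapping groups and S239A library 2 lowest (log2 fold change 0.13, SE 0.16, edgeR adjusted p = 0.537). With library 2 of S239A and of S239D left out, an alternative chosen after seeing the data, VEGFA was called higher at 0.24 and ANGPTL4 at 0.33, where 25.3% of all genes were called higher (edgeR adjusted p = 0.00329 and 0.000969). ADM, adrenomedullin, had a log2 fold change of -0.04, PLOD2, a collagen lysyl hydroxylase, 0.12, and P4HA2 -0.29 (edgeR adjusted p = 0.865, 0.508 and 0.116). KDM3A, a histone demethylase, was 0.22, and ANGPTL4, a secreted regulator of lipoprotein lipase, was 0.24 (adjusted p = 0.186 and 0.145 in edgeR). ANKRD37, an ankyrin-repeat protein, was -0.45 (edgeR adjusted p = 0.241), and UFSP2, which overlaps it on the opposite strand, holds 481% of its counts.

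All 3 transporters fell, where 21.7% of all genes did. SLC2A1 (chr1:42925375-42958868, minus strand) encodes GLUT1, which carries glucose into most cells, and was at 88.2, 90.4 and 86.2 CPM (WT), 75.4, 75.7 and 77.9 CPM (S239A) and 50.5, 40.6 and 52.2 CPM (S239D). In CPM, WT lay highest, S239A between and S239D lowest, with no overlap between the 3 groups (log2 fold change -0.88, SE 0.10, edgeR adjusted p = 1.18e-05 for S239D against WT). In TPM, S239D library 1 (40.14) lay above S239A libraries 1 and 2 (37.35 and 35.81). SLC16A3 (chr17:82228397-82261129, plus strand) encodes MCT4, which exports lactate, and was at 85.1, 93.9 and 86.0 CPM (WT), 89.1, 70.8 and 109.6 CPM (S239A) and 46.9, 30.5 and 44.2 CPM (S239D). S239D was lowest, and WT and S239A overlapped (log2 fold change -1.12, SE 0.16, edgeR adjusted p = 0.000103). SLC16A3 overlaps CSNK1D on the opposite strand, which holds 264% of its counts and was not called (log2 fold change 0.17). SLC2A3 (chr12:7919230-7936187, minus strand) encodes GLUT3, a high-affinity glucose carrier, and had few counts: 14, 13 and 23 (WT), 8, 20 and 32 (S239A) and 0, 0 and 1 (S239D). It entered the test only through the WT and S239A libraries. The count ratio of WT to S239D was 54.3 (95% exact interval 9.31 to 2188, counting error only), and of S239A to S239D 59.5 (10.3 to 2390). The near-identical gene SLC2A14 had 3 counts in all, in S239A library 1.

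The flux regulators set how fast sugar enters and leaves the pathway. PFKFB3 (chr10:6144934-6254644, plus strand) makes fructose 2,6-bisphosphate, the activator of phosphofructokinase, and was at 80.6, 81.1 and 85.9 CPM (WT), 68.0, 57.8 and 69.8 CPM (S239A) and 49.2, 40.2 and 48.3 CPM (S239D). The 3 groups did not overlap, with WT highest and S239D lowest (log2 fold change -0.85, SE 0.11, edgeR adjusted p = 2.85e-05 for S239D against WT). PDK1, a kinase that blocks entry of pyruvate into the mitochondrial citric acid cycle, had 14.6, 14.9 and 15.2 CPM (WT), 13, 13.9 and 12.6 CPM (S239A) and 8.57, 9.74 and 9.76 CPM (S239D). Its order in CPM was the same, WT above S239A above S239D without overlap (log2 fold change -0.67, SE 0.14, edgeR adjusted p = 0.00140 for S239D against WT). In TPM, WT (5.37 to 7.14) and S239A (5.08 to 7.94) overlapped. PFKFB4, an isozyme of PFKFB3, was not called (log2 fold change -0.32, edgeR adjusted p = 0.0685), and without S239A library 2 it passed (edgeR adjusted p = 0.0454).

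**Figure D2:**
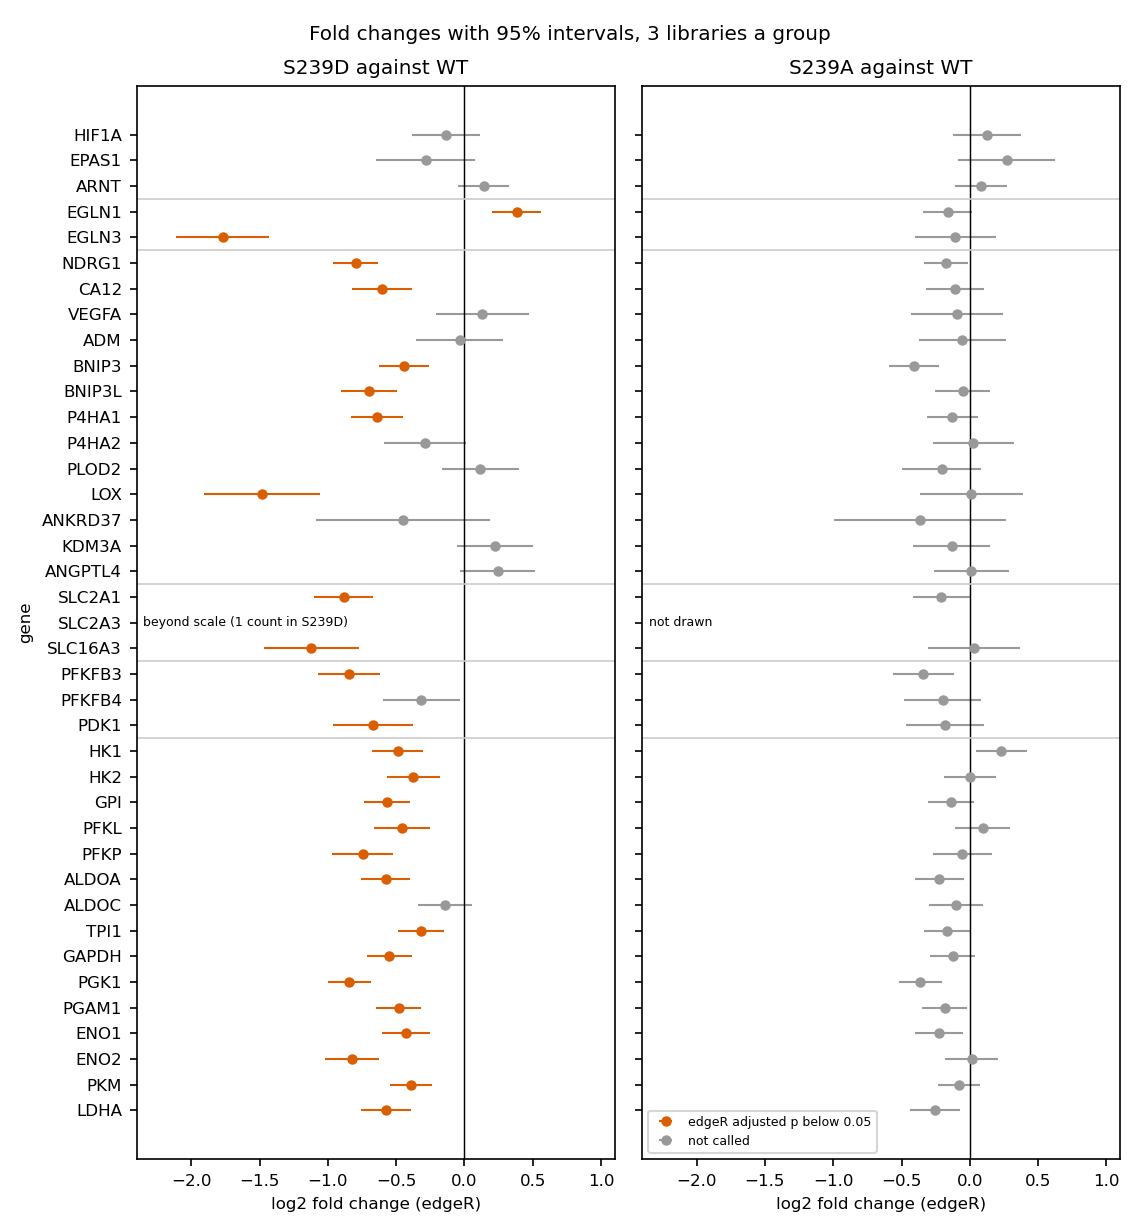
log2 fold change with 95% intervals from edgeR for each tested gene, 3 libraries a group, S239D against WT on the left and S239A against WT on the right (orange, called; grey, not called). Most left-hand points sit below 0, and no right-hand point is called. SLC2A3 is not drawn because S239D held 1 count.

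Of the 15 glycolytic enzymes, 14 fell (93.3%, beside 21.7% of all genes), and the median log2 fold change of the 15 was -0.49. PGK1 (chrX:77910739-78129295, plus strand), phosphoglycerate kinase, which makes the first ATP of the pathway, was at 529.9, 531 and 523 CPM (WT), 423, 390.4 and 419.5 CPM (S239A) and 279, 297 and 308 CPM (S239D). The groups did not overlap, with WT highest, S239A between and S239D lowest (log2 fold change -0.84, SE 0.073, edgeR adjusted p = 1.20e-06 for S239D against WT). ENO2 (chr12:6913745-6923698, plus strand), an enolase best known from neurons and neuroendocrine cells, was at 236, 225 and 229 CPM (WT), 238, 205 and 253 CPM (S239A) and 127, 122 and 142 CPM (S239D), with S239D below every other library and WT and S239A overlapping (log2 fold change -0.82, SE 0.093, edgeR adjusted p = 1.13e-05). LDHA (chr11:18394560-18408425, plus strand), which turns pyruvate into lactate, was at 678, 715 and 702 CPM (WT), 559, 639 and 558 CPM (S239A) and 432, 515 and 459.6 CPM (S239D), with the 3 groups separate in CPM and S239D lowest (log2 fold change -0.58, SE 0.085, edgeR adjusted p = 0.000116). In TPM, LDHA in S239D library 2 (415) lay within the S239A libraries (381 to 446). GAPDH (chr12:6534512-6538374, plus strand), often used as a reference gene, had the highest TPM of the 15 enzymes, 5546 ± 159 in WT and 4009 ± 64.9 in S239D (SD, n = 3). It had 4068, 4243 and 4317 CPM (WT), 3738, 4249 and 3592 CPM (S239A) and 2949, 2746 and 2925 CPM (S239D), so S239D was below every WT and S239A library (log2 fold change -0.55, edgeR adjusted p = 7.29e-05). HK1, the hexokinase that starts glycolysis, was at 291, 322 and 292 CPM (WT), 330.0, 396 and 335 CPM (S239A) and 223, 204 and 217 CPM (S239D), highest in S239A and lowest in S239D (log2 fold change -0.49, SE 0.088, edgeR adjusted p = 0.000555 for S239D against WT). PGK1 shares a span with ATP7A on the same strand, whose counts were 5.96% of those of PGK1.

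The other 10 enzymes spanned a wide range of levels. In WT, mean TPM ran from 31.9 for PFKP to 1305 for TPI1, with ALDOA at 1206, ENO1 at 1000.3 and PKM at 723. ALDOA, the aldolase that splits the sugar, had 1075, 1142 and 1092 CPM (WT), 917, 1042 and 873 CPM (S239A) and 800.1, 690.5 and 729 CPM (S239D). PKM, pyruvate kinase, had 1049, 1066 and 1064 CPM (WT), 968, 1059.7 and 979 CPM (S239A) and 831, 757 and 835 CPM (S239D). In both, every S239D library was below every other library in CPM, while S239A lay below WT for ALDOA and overlapped WT for PKM. In TPM, ALDOA in S239D library 1 (932.82) was just above S239A library 3 (929.77). PFKP and PFKL are forms of phosphofructokinase, the committed step, and fell by 0.74 and 0.46 on the log2 scale. ALDOA fell by 0.58, GPI, glucose phosphate isomerase, by 0.57, and PGAM1, phosphoglycerate mutase, by 0.48. ENO1, enolase of most tissues, fell by 0.43, PKM by 0.39, HK2, the inducible hexokinase, by 0.37 and TPI1, triose phosphate isomerase, by 0.32. The largest edgeR adjusted p among these was 0.00522, for TPI1. ALDOC, the second aldolase, had a log2 fold change of -0.14 and was not called (edgeR adjusted p = 0.233). In ALDOC the S239D libraries lay below all WT libraries in CPM but overlapped S239A. In TPM, S239D library 3 (52.85) lay above WT libraries 1 and 2 (50.16 and 50.03). GAPDH has 62 pseudogenes in the annotation, which held at most 0.0498% of its counts. The settings for reads that match several copies are not known here.

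**Figure D3:**
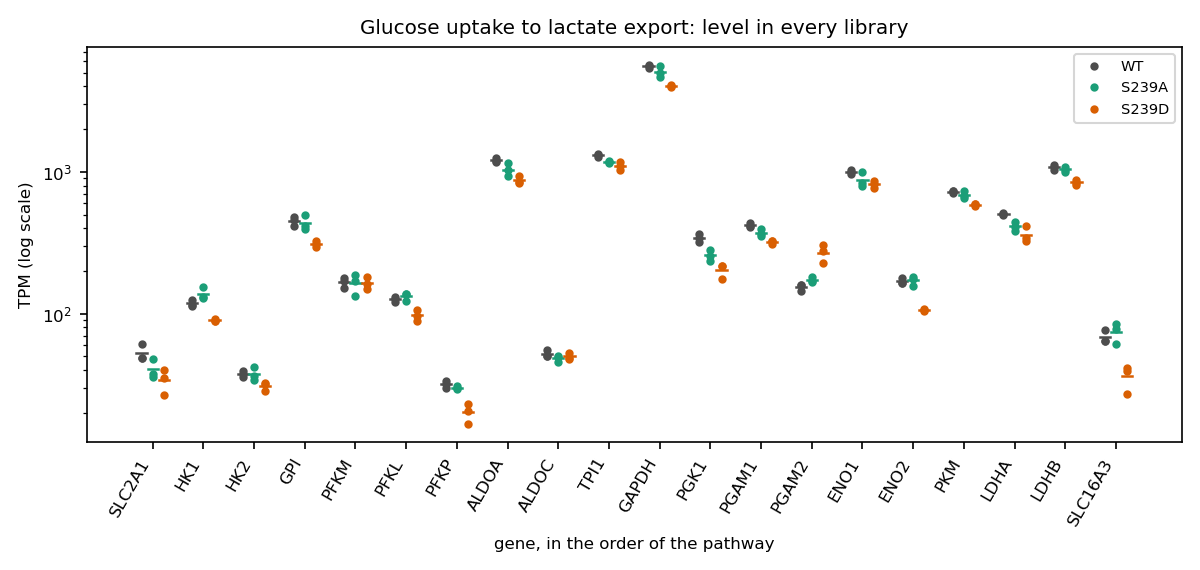
TPM, on a log axis, of each step from glucose uptake (SLC2A1) to lactate export (SLC16A3) in every library, with a line at each group mean; the isozymes PFKM, PGAM2 and LDHB are drawn as well. S239D points are lowest at most steps, while PFKM and ALDOC overlap and PGAM2 is highest in S239D. At SLC2A1, ALDOA, TPI1, ENO1 and LDHA, S239D points overlap those of S239A.

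Isozymes within a step were compared as shares of their summed TPM, which do not depend on the total of a library. ENO2 made up 14.2% ± 0.321 of enolase in WT and 11.2% ± 0.435 in S239D (exact permutation p = 0.1, the smallest that 3 against 3 allows). PFKM, the muscle form, made up 51.3% ± 1.43 of phosphofructokinase in WT and 58.2% ± 3.90 in S239D, where PFKP and PFKL had fallen (exact permutation p = 0.1). LDHA made up 32.3, 31.3 and 32.0 percent of LDHA and LDHB in WT and 28.4, 33.1 and 28.2 percent in S239D, with S239D libraries above and below WT (exact permutation p = 0.4). LDHB had fallen as well, and the LDHA share did not differ beyond the spread of the libraries.

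A further 2 shares were chosen after gene values had been seen. PDK4, the pyruvate dehydrogenase kinase associated with fasting and lipid use, made up 70.7, 69.3 and 73.1 percent of the 4 kinases in WT and 87.1, 89.6 and 88.6 percent in S239D, without overlap. PDK4 rose by 0.86 while PDK1, PDK2 and PDK3 fell by 0.67, 0.73 and 0.70 on the log2 scale (edgeR adjusted p at most 0.00140). PDK2 overlaps SAMD14 on the opposite strand, which holds 76.0% of its counts and fell by 0.74. PFKFB2, an isozyme of PFKFB3, made up 16.2, 13.9 and 18.8 percent of PFKFB2 to PFKFB4 in WT and 37.4, 49.4 and 39.8 percent in S239D. PFKFB2 overlaps YOD1 on the opposite strand, which rose by 1.0 and holds 138% of its counts, so its own change is uncertain.

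**Figure D4:**
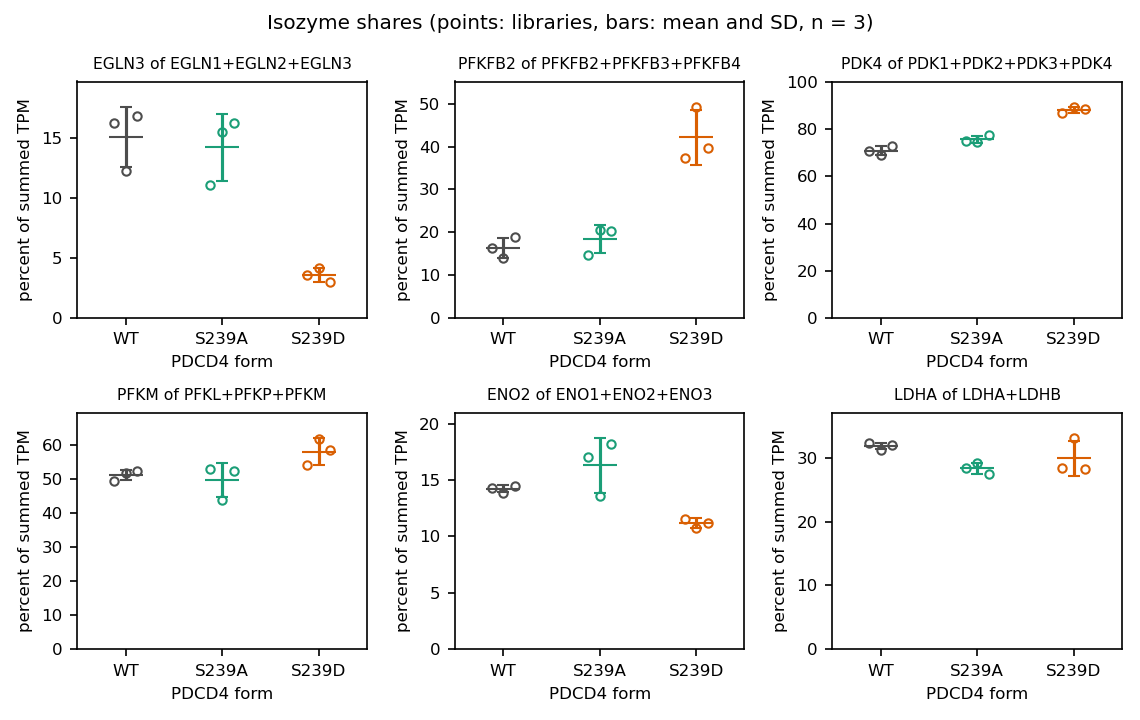
Share of summed TPM taken by 1 isozyme, in percent, for 6 steps (points, libraries; bars, mean and SD, n = 3). EGLN3 and ENO2 take less and PFKM, PFKFB2 and PDK4 take more in S239D than in WT, while the LDHA shares overlap.

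Comparing S239A with WT asked whether blocking phosphorylation changes these genes relative to WT. None of the 39 passed the edgeR test, where 0.00617% of all genes did (1 gene, TXNIP). At unadjusted p below 0.05, 8 of the 39 were lower and 1 was higher, where 4.29% of all genes were lower and 5.47% higher. The median was -0.11, with 27 values below 0 and 12 above. The 5 with the smallest p were PGK1, BNIP3, PFKFB3, LDHA and ENO1, with log2 fold changes of -0.36, -0.41, -0.34, -0.25 and -0.22. Their edgeR adjusted p-values were 0.201, 0.201, 0.297, 0.341 and 0.388. In CPM the S239A libraries lay below all WT libraries in each. Genes picked for a small p tend to separate in this way, so the separation is no added support. In TPM, ENO1 overlapped between S239A and WT. DESeq2 called PGK1 and BNIP3 lower, where it called 0.388% of genes lower, and limma called none of the 39 and 0.00576% of all genes. With library 2 of S239A and of S239D both left out, edgeR called 13 of 39 lower (33.3%) and 0 higher, where 2.62% of all genes were lower and 2.68% higher. Among those 13, ENO1 was at -0.31, PGK1 at -0.33 and LDHA at -0.32. Leaving out S239A library 2 alone, or S239D library 2 alone, left 0 members called.

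S239D against S239A compares the mimic with the form that cannot be phosphorylated, using the same S239D libraries as above. Of the 39 genes, 24 fell, 2 rose (EGLN1 and KDM3A) and 13 were not called, where 43.6% of all genes were called, 22.7% lower and 20.9% higher. The median was -0.37, against 0.0099 for all genes. EGLN3 fell by 1.67, LOX by 1.5, SLC16A3 by 1.15, ENO2 by 0.83, HK1 by 0.72, PFKP by 0.69 and SLC2A1 by 0.68 on the log2 scale (edgeR adjusted p at most 0.000119). BNIP3L, NDRG1, PFKL, P4HA1, PFKFB3, CA12 and PDK1 fell by 0.49 to 0.65, and PGK1, GPI, GAPDH, HK2, ALDOA, LDHA, PKM and PGAM1 by 0.30 to 0.48. SLC2A3 fell as well, by the count ratio given above. Of the 26 calls, 14 held in every alternative that tested them and 12 were lost in at least 1. Limma on log2(TPM + 1) lost the falls of SLC2A1, PFKFB3, CA12, PDK1, PGK1, HK2, ALDOA, LDHA, PKM and PGAM1. SLC2A1 was there at -0.25 (limma adjusted p = 0.348). ENO1, TPI1 and ALDOC were not called, with ENO1 at -0.20 and TPI1 at -0.15 (edgeR adjusted p = 0.0585 and 0.136). BNIP3 was at -0.04 (edgeR adjusted p = 0.769, 95% interval -0.22 to 0.15), and the libraries of the 2 variants overlapped. Without S239A library 3, ENO1 passed the edgeR test (adjusted p = 0.0397).

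Among HIF genes in this comparison, EPAS1 fell by 0.55 (edgeR adjusted p = 0.0147) and HIF1A was at -0.26 (edgeR adjusted p = 0.0807). With a block for replicate number, fitted over all 9 libraries, HIF1A passed (log2 fold change -0.27, edgeR adjusted p = 0.0346). Without S239D library 2 and without the block, HIF1A passed too, at -0.41 (edgeR adjusted p = 0.00311). Replicate numbers paired these 2 groups only narrowly by the rule described below, and did not pair WT with them. The EPAS1 call was lost without S239A library 1 (adjusted p = 0.0552 in edgeR). EGLN1 rose by 0.54 (edgeR adjusted p = 0.000141). KDM3A rose by 0.36 (edgeR adjusted p = 0.0389), and that call did not hold when 1 of 6 libraries was left out (each WT library, S239A library 1 or 3, or S239D library 2), with limma and with the compared groups alone. With limma on log2(TPM + 1), 13 members fell and 1 rose, where 10.8% and 14.8% of all genes did. EPAS1 was there at 0.076 in place of a fall, with the median of all genes at 0.092.

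Genes of the same pathways outside the 41 were listed by role, and 66 of 78 were tested. In S239D against WT 12 rose and 21 fell, so 18.2% were higher and 31.8% lower, beside 19.7% and 21.7% of all genes, and their median log2 fold change was -0.068. Of 13 genes of HIF turnover and cofactors, 3 rose and 1 fell. EP300 and CREBBP, the coactivators recruited by HIF, rose by 1.0 and 0.92 and ARNT2, an ARNT relative, fell by 0.52 on the log2 scale (edgeR adjusted p at most 0.00337), and VHL was not called (log2 fold change 0.07). Of 19 other hypoxia-induced genes 4 rose and 6 fell. BHLHE40, a transcriptional repressor, rose by 1.89, DDIT4, an inhibitor of mTOR signalling, fell by 1.23, and MIF, a cytokine, fell by 0.50 (edgeR adjusted p at most 0.000173).

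Of the 7 other isozymes tested, LDHB fell by 0.44 and BPGM by 0.42, and PGAM2 rose by 0.73 (edgeR adjusted p at most 0.0267). PGAM2 overlaps DBNL on the opposite strand, which holds 226% of its counts, so its change is uncertain. Of 15 other transporters and flux regulators 3 rose (PFKFB2, TIGAR and PDK4, which had the smallest p of the list) and 7 fell. These were 20% and 46.7% of the list, beside 19.7% higher and 21.7% lower of all genes. The largest fall was that of the glucose carrier SLC2A4, by 2.26 on the log2 scale (edgeR adjusted p = 3.72e-05). PFKFB2 rose by 1.51 and TIGAR, which lowers fructose 2,6-bisphosphate, by 1.56 (edgeR adjusted p = 1.07e-07 and 8.92e-07). Of 12 pentose phosphate and glycogen genes 1 rose and 5 fell (8.33% and 41.7%). Among the falls were PYGL, glycogen phosphorylase, by 1.55, TALDO1 by 0.39 and UGP2 by 0.50 (edgeR adjusted p at most 0.00150).

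Against S239A, 14 of the 66 rose and 20 fell in S239D, or 21.2% and 30.3%, where 20.9% of all genes rose and 22.7% fell. EP300 rose by 0.86, CREBBP by 0.87, BHLHE40 by 2.25 and GBE1, the glycogen branching enzyme, by 0.69, while ARNT2 fell by 0.63 and DDIT4 by 1.68 on the log2 scale. PFKFB2 rose by 1.52, TIGAR by 1.68 and PGAM2 by 0.56. SLC2A4, the insulin-responsive glucose carrier, fell by 2.74, LDHB by 0.39 and BPGM by 0.44. PYGL fell by 1.81, PYGB by 0.53 and TALDO1 by 0.37, and the largest edgeR adjusted p of these 15 genes was 0.0205. PYGB overlaps ABHD12 on the opposite strand, which holds 127% of its counts.

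In S239A against WT none of the 66 was called by edgeR. At unadjusted p below 0.05, 3 were lower (4.55%) and 3 higher, beside 4.29% lower and 5.47% higher of all genes. TXNIP, which restrains glucose uptake and is induced by glucose, was the 1 gene of the whole table called there, at 468 ± 15.9 CPM in WT and 251 ± 13 in S239A (SD, n = 3, log2 fold change -0.90, edgeR adjusted p = 9.79e-05). In S239D TXNIP was at 647 ± 21.7 CPM.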

How the data were processed

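RNA from 9 libraries of 22Rv1 cells, 3 for each PDCD4 form, had been sequenced after poly-T selection and random priming, per the labels' protocols. The authors deposited expected counts per gene, not normalized between libraries, and TPM, scaled within each library. The submitters' processing notes name Trimmomatic 0.39 and, with no version, RSEM. For the aligner, build, annotation release and strandedness, nothing is given in the sources used here. All 41 members' identifiers were found in GENCODE 29 on GRCh38, all 41 positions overlapped and 39 shared a gene end, so the table's coordinates are given as GRCh38. Promoter windows are RefSeq's on GRCh38.p14.

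The members and the pathway and marker lists were chosen with earlier results of these data known. Expected counts, of which 3.81% were not whole, were rounded. Genes were kept by edgeR's filterByExpr (16213 of 60623), scaled by TMM, and tested over all 9 libraries with edgeR 4.0.16 glmQLFTest in R 4.3.3, two-sided, with Benjamini-Hochberg adjustment over all genes tested. The scripts were tested on simulated data. Named genes were, in each comparison, the members called, or the 5 with the smallest p where fewer than 5 were called, and from each pathway list the 3 called genes with the smallest p. Some further genes of these lists are named beside them. CPM use TMM-scaled library sizes. Single shares and sums were compared by exact two-sided permutation tests over libraries. Mean ± SD is over 3 libraries.

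Alternatives were size factors of DESeq2, the DESeq2 1.42.0 test, limma 3.58.1 on log2(TPM + 1) for genes of at least 1 TPM in 3 libraries, no filter, 1 CPM in 6 libraries, fits with only the 2 groups compared, a block for replicate number, and leaving out each library. Leaving out library 2 of S239A and S239D together was added after seeing the data. Same-numbered S239A and S239D libraries deviated together in all 3 pairs (r = 0.100, 0.251 and 0.103), so numbers from the sample titles pair these groups by the rule used (r above 0.1 in every pair), narrowly in 2 pairs, and S239A library 3 deviated more with S239D library 1 (r = 0.150). The other groups were not paired by it.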

Additional observations from a re-analysis of the deposited data

How the results depend on the processing

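No called member changed direction in S239D against WT in any alternative that tested it (17, or 16 for SLC2A3, which the filter of 1 CPM in 6 libraries removed). With limma on log2(TPM + 1) fewer falls were called: 1773 genes lower in S239D against WT, and, in S239D against S239A, 1883 genes and 13 members lower, 1 member higher and a member median of -0.23. With limma PFKFB4 stood at 0.049 (S239D against WT) and EPAS1 at 0.076 (S239D against S239A). Limma put the median of all genes at 0.082 and 0.092 in these comparisons, above both values. The cause of the differences between limma and edgeR was not tested. S239A against WT depended most on the settings. Genes called higher and lower there were 43 and 26 with DESeq2, 1 and 0 with limma, 95 and 47 without a filter on low counts, and 442 and 432 without both second libraries, where 13 members were lower. Members called lower were 2 with DESeq2 and 2 without a filter. Leaving out 1 library gave 0 to 5 genes higher and 1 to 3 lower, the highest values without S239D library 2. With the replicate number as a block, 3 genes were higher and 3 lower in S239A against WT, and 2 members were higher in S239D against WT (EGLN1 and ANGPTL4), and PFKFB4 passed as lower there (-0.32, edgeR adjusted p = 0.0345). Without both second libraries 3 members were higher. WT libraries were not paired with the other groups by number (r between -0.0087 and 0.091), and with the block every member called in S239D against S239A was called again. In S239D against S239A, members called higher were 1 to 3 when 1 library was left out and 1 with only the 2 groups compared. Among members not called, leaving out 1 library moved ADM between -0.096 and 0.0019 and PLOD2 between -0.037 and 0.20 in S239D against WT, and BNIP3 between -0.081 and 0.013 in S239D against S239A. PLOD2 was at -0.038 without both second libraries. Depth limits SLC2A3, ANKRD37, LOX and EPAS1 most, and CA9 and HIF3A did not pass the filter on low counts.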
